A study of Homo sapiens with 4 samples.

Results

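Cytosolic ribosomal protein genes were followed through RNA sequencing of 4 human hepatoma cultures. They were taken by symbol: every gene whose symbol starts with RPL or RPS and a digit, together with RPLP0, RPLP1, RPLP2 and RPSA, leaving out the RPS6K kinases and symbols that end, after their number, in P and digits (the pseudogene suffix). This gave 85 of the 16370 genes with counts, of which 46 encode proteins of the large subunit, 31 encode proteins of the small subunit and 8 are copies named after a parent gene (RPL3L, RPL7L1, RPL10L, RPL22L1, RPL26L1, RPL36AL, RPL39L and RPS27L). FAU, which encodes a ribosomal protein fused to a ubiquitin-like protein, falls outside the rule. RPS19BP1, the gene of a binding protein, was left out because its symbol has the ending of a pseudogene.

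Hep3B and Huh7 are established human hepatoma cell lines, grouped as hepatocellular carcinoma (HCC) cells. From each a stem-like culture was grown, Hep3B-C and Huh7-C in turn, and these form the group of hepatic cancer stem cells (HCSCs). The labels name no altered gene, treatment or time point. Each culture was represented by 1 library, so the libraries of a pair were compared with each other and no difference between cultures had a replicate check. Library totals ran from 2896418 counts in Hep3B to 4641927 in Hep3B-C, and 3 counts corresponded to between 0.646 and 1.04 CPM, the usual scaling of counts by library size. All 7 hepatocyte lineage markers were detected in every library, and their summed level was 50400 CPM in Hep3B and 59300 in Hep3B-C, against 47100 in Huh7 and 25700 in Huh7-C. The 3 surface markers of HCSCs (PROM1, EPCAM and THY1) summed to 886 CPM in Hep3B and 254 in Hep3B-C, against 68.3 in Huh7 and 69.2 in Huh7-C, with 1 of the 3 at 3 counts or fewer in each library. The part of these differences in the results was not tested. Of 14 markers of leukocytes, endothelium, fibroblasts and red cells, LYZ, the lysozyme gene, was above 50 CPM in every library while the other 3 leukocyte markers had no counts listed, and the summed level of each of the other lists was at most 21.5 CPM.

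The ribosome is built from ribosomal RNA and a set of proteins that are each needed in about the same amount. Most are encoded by a single gene without a cell-type-specific promoter, and their mRNAs carry a 5′ terminal oligopyrimidine (TOP) tract, a C at the first base followed by a run of C and T (U in the mRNA), through which mTOR signalling controls their translation. Ribosomal protein mRNAs are among the most abundant of growing cells and change with growth, with ribosome production and, for some copies, with cell type or p53 activity.

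The start-site sequences of the genes that carry the results are shown first because the TOP tract is the feature that most of these genes share. The 30 bases are the 15 before the annotated first base and the 15 from it onward, read 5′ to 3′ on the transcribed strand from RefSeq (build GRCh38.p14), and capitals mark the unbroken run of C and T across the first base. The P stalk genes are followed by genes with the highest and lowest changes in Hep3B-C, and then by a parent and its copy.
RPLP0 (chr12:120201097-120201126, minus strand): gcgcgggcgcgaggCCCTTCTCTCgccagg
RPLP1 (chr15:69452803-69452832, plus strand): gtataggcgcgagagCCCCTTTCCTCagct
RPLP2 (chr11:809952-809981, plus strand): ttgcgtcggcgCCTTCCTTTTCCTCCCTgt
RPL12 (chr9:127451392-127451421, minus strand): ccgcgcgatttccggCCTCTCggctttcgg
RPS21 (chr20:62387088-62387117, plus strand): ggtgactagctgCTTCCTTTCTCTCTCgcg
RPL39 (chrX:119791616-119791645, minus strand): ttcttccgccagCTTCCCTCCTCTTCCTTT
RPL34 (chr4:108620561-108620590, plus strand): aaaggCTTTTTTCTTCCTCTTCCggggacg
RPL26 (chr17:8383179-8383208, minus strand): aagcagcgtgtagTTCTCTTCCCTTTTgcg
RPS27 (chr1:153990747-153990776, plus strand): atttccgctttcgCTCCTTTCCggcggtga
RPS27L (chr15:63157463-63157492, minus strand): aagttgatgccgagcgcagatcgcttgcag
All of these except RPS27L have the tract, both the genes that were highest and those that were lowest in Hep3B-C. A start-site window was matched for 68 of the 85 genes. In 47 of these 68 (69.1%) at least 1 annotated start had a C at the first base followed by 4 bases that were each C or T, against 1404 of 27305 genes with a window (5.14%). Among genes that are not copies the tract was in 46 of 62 (74.2%), and among the copies in 1 of 6 (16.7%), RPL22L1. A match describes the letters at an annotated start only.

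Ribosomal protein genes took a larger share of the counts in the Huh7 libraries than in the Hep3B libraries. They held 4.76% of the counts in Hep3B (exact 95% binomial interval 4.735 to 4.785) and 5.93% in Hep3B-C (5.91 to 5.953), against 9.90% in Huh7 (9.872 to 9.927) and 8.83% in Huh7-C (8.801 to 8.854). The intervals cover counting error only. The HCSC share was thus 1.25 times the parental share in Hep3B-C and 0.892 times the parental share in Huh7-C, so the pairs moved in opposite directions. Huh7 stood at 2.08 times the share of Hep3B, a gap larger than that within either pair.

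**Figure D1:**
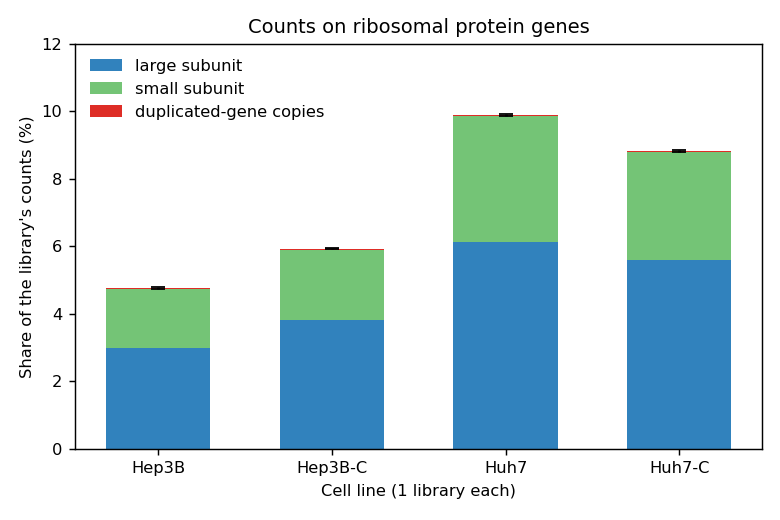
Share of each library's counts (%, y axis) on large-subunit genes, small-subunit genes and the 8 duplicated-gene copies in the 4 cell lines. Bars start at 0, the cap marks the exact 95% binomial interval of the whole share, and the order from low to high is Hep3B (4.76%), Hep3B-C (5.93%), Huh7-C (8.83%) and Huh7 (9.90%).

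Both subunits followed the same order. Large-subunit genes held 2.996% of the counts in Hep3B and 3.81% in Hep3B-C, against 6.14% in Huh7 and 5.58% in Huh7-C. Small-subunit genes held 1.74%, 2.09%, 3.72% and 3.21% in the same libraries. The 8 copies together held between 0.0262% and 0.0379%. With each count divided by the gene's length, the share was 14.94% in Hep3B and 14.27% in Hep3B-C, so the direction of the Hep3B pair turned, while Huh7 (22.95%) stayed above Huh7-C (21.56%).

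Levels were compared between genes per length. RPKM values (CPM divided by the deposited gene length in kilobases) were computed for the 82 genes that reached 10 counts in each pair. The median was 616 RPKM in Hep3B and 739 in Hep3B-C, against 1110 in Huh7 and 1080 in Huh7-C, and the interquartile range ran from 359 to 1050 RPKM in Hep3B and from 767 to 2110 in Huh7. Across these genes, log2 RPKM had a Pearson correlation of 0.99 between Huh7 and Huh7-C and of 0.86 between Hep3B and Hep3B-C. Between pairs, Hep3B-C had a correlation of 0.94 with Huh7 and 0.95 with Huh7-C, and Hep3B one of 0.89 and 0.87. Every value that involved Hep3B was thus below every value that did not, and Hep3B-C was less like its parental line than like the Huh7 libraries. These are descriptions over 82 genes that share gene lengths, and the Hep3B pair was the less alike of the pairs.

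The highest median RPKM over the 4 libraries was that of RPS2, a protein near the mRNA entry channel of the small subunit. RPS2 stood at 1402 RPKM in Hep3B and 3289 in Hep3B-C, against 6211 in Huh7 and 6222 in Huh7-C. RPLP0, the anchor of the P stalk, stood at 1200, 2377, 4666 and 4148 RPKM in the same libraries. RPL41, which encodes the smallest ribosomal protein, stood at 1435, 3119, 3816 and 3196 RPKM. In all 3 genes Hep3B was the lowest library.

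At the other end, the lowest median RPKM among genes with at least 50 counts in every library belonged to a pair of copies and to RPL13A. RPL39L stood between 20.1 RPKM in Huh7 and 34.4 in Hep3B, and RPL7L1 between 35.7 RPKM in Hep3B and 61.7 in Huh7-C. RPL13A is a large-subunit protein that is also used as a reference gene. It stood at 92.3 RPKM in Hep3B and 75.6 in Hep3B-C, against 191 in Huh7 and 217 in Huh7-C. In each library this was well below the median of the 82 ribosomal protein genes.

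Low values of single genes are given here beside their annotated pseudogenes. RPL21 had 3 counts in Hep3B and 1 in Hep3B-C, against 2 in Huh7 and 0 in Huh7-C, and 66 pseudogenes carry its name in GENCODE release 29. RPL23A, by contrast, had 2749, 7171, 7693 and 5475 counts and 91 such pseudogenes. Over the 77 genes that are not copies the Spearman correlation of median RPKM with the number of pseudogenes was -0.23, a description only. How reads with several matches were counted is not given in the sources used here, and its part in these levels was not tested.

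Within the Hep3B pair, ribosomal protein genes moved in both directions. On the scale of counts per library total, with 0.5 added to each count, the median log2 fold-change (Hep3B-C/Hep3B) of the 82 genes was 0.23, against -0.60 over all 12383 genes with at least 10 counts in the pair. In 47 of the 82 (57.3%) the value was above 0, against 36.8% of all genes, and the lowest value was -2.91 in RPS27L. Of the 83 genes tested, 15 rose and 10 fell at a false discovery rate (FDR, Audic-Claverie test of the pair of counts, Benjamini-Hochberg) of at most 0.01 and a 2-fold limit. That is 18.1% up and 12% down, against 13.2% up and 30.4% down among all 15480 genes tested. Without the fold limit 43 were up (all genes 19.1%) and 30 down (all genes 37.9%).

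**Figure D2:**
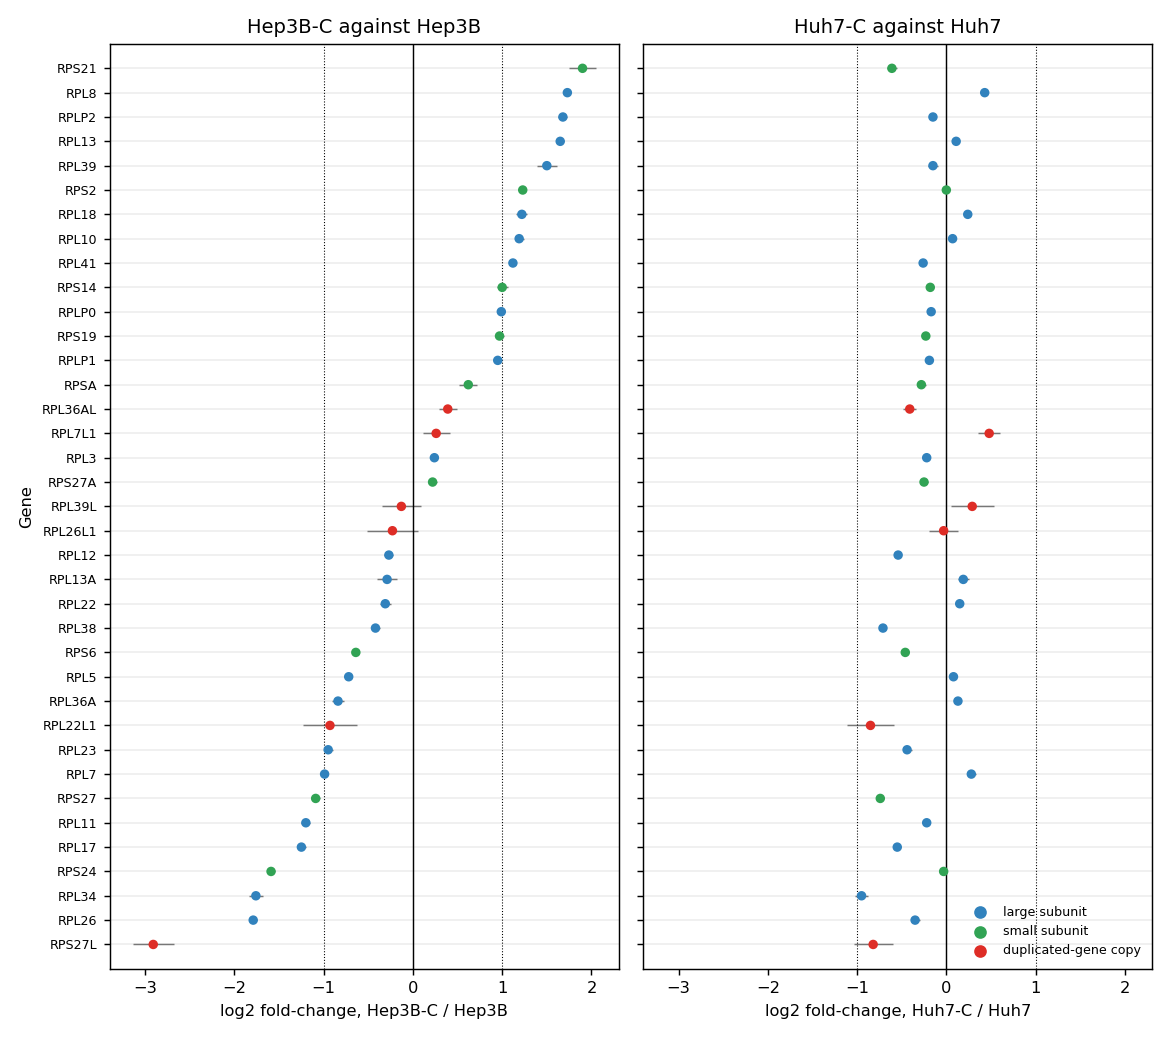
Log2 fold-change (x axis, HCSC line over parental line, ± SE of Poisson counts) of 37 ribosomal protein genes described in the text, 1 row per gene (y axis), ordered by the Hep3B pair. Dotted lines mark the 2-fold limit, and the spread is wider in the Hep3B pair, where 9 of these genes rose and 7 fell, than in the Huh7 pair, where none did.

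The direction of the set in Hep3B-C depended on the scale. With TMM library sizes (edgeR), which raised every log2 fold-change of this pair by 0.60, 36 genes were up and 3 down, with 21.6% and 18.1% of all genes called. With the trend of the fold-change on gene length removed (a lowess curve over all genes), 1 was up and 32 were down, with 10.7% and 27.7% of all genes called, and the median was -0.72 against -0.53 for all genes. After removal of a GC trend together with the length trend, 2 were up and 30 down, with 4.61% and 22.6% of all genes called. The ribosomal protein genes had a median length of 725 bases against 2921 bases over all genes. Where variation between cultures was assumed at a biological coefficient of variation (BCV) of 0.4, none was called in either direction, with 0.401% of all genes up and 1.09% down.

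Among the genes that stood highest in Hep3B-C were RPS21, RPL8, RPLP2 and RPL13. RPS21, a small-subunit protein, had 35.6 CPM in Hep3B and 133 in Hep3B-C, against 292 in Huh7 and 192 in Huh7-C, which gave 1.90 ± 0.15 in the Hep3B pair (FDR 2.9e-45) and -0.61 in the Huh7 pair. Here the Hep3B-C value, although raised, remained below both Huh7 libraries.
RPL8, which contacts the peptidyl transferase centre, had 978, 3250, 2301 and 3093 CPM. Its log2 fold-change was 1.73 ± 0.03 in the Hep3B pair and 0.43 in the Huh7 pair, so both HCSC lines were above their parental lines, although only the first passed the fold limit. RPL13, of the large subunit, had 482, 1510, 1082 and 1165 CPM, with 1.65 ± 0.04 in the Hep3B pair and 0.11 in the Huh7 pair. After removal of both trends, RPS21 was at 0.18, RPL8 at -0.15 and RPL13 at 0.37, none past the fold limit.

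The genes that stood lowest in Hep3B-C were RPS27L, RPL26, RPL34, RPS24 and RPL17. RPS27L, a copy of RPS27 that is known as a p53 target, had 74.9 CPM in Hep3B and 9.91 in Hep3B-C, against 25.8 in Huh7 and 14.5 in Huh7-C. Its log2 fold-change was -2.91 ± 0.23 in the Hep3B pair (FDR 1.1e-47) and -0.82 in the Huh7 pair (FDR 0.00088). Both HCSC lines lay below their parental lines, and Hep3B stood apart above the other 3 libraries.
RPL26, which is also known to bind the mRNA of p53, had 1148, 333, 513 and 403 CPM, a log2 fold-change of -1.79 ± 0.04 in the Hep3B pair and of -0.35 in the Huh7 pair. RPL34, of the large subunit, had 314, 92.9, 257 and 133 CPM. Its log2 fold-changes were -1.76 ± 0.08 (FDR 5.1e-104) and -0.95 (FDR 7.3e-39), the latter the lowest of the Huh7 pair and just short of the fold limit. Both HCSC lines were below both parental lines.
RPS24, a small-subunit protein whose gene is mutated in some patients with Diamond-Blackfan anaemia, had 1144, 379, 829 and 813 CPM. It fell in Hep3B-C (-1.59 ± 0.04) and was at -0.03 in the Huh7 pair. RPL17, which lies near the peptide exit tunnel, had 688, 290, 782 and 534 CPM, with -1.25 ± 0.05 (FDR 2.1e-134) and -0.55. After removal of both trends, the values in the Hep3B pair were -2.79 for RPS27L, -2.03 for RPL26, -1.64 for RPL34, -1.71 for RPS24 and -1.25 for RPL17, all below -1. With TMM library sizes, however, RPL17 was at -0.65 and RPS24 just inside the fold limit at -1.0, and both lost their call.

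The P stalk is the side arm of the large subunit that recruits elongation factors, built from RPLP0, RPLP1 and RPLP2 on a base that includes RPL12. RPLP2 had 355 CPM in Hep3B and 1135 in Hep3B-C, against 1314 in Huh7 and 1186 in Huh7-C. It rose in Hep3B-C by 1.68 ± 0.05 on the log2 scale and was at -0.15 in the Huh7 pair. RPLP0 (0.99 ± 0.02) and RPLP1 (0.95 ± 0.04) lay just under the fold limit in the Hep3B pair, and were at -0.17 and -0.19 in the Huh7 pair. RPL12 was at -0.27 ± 0.05 and -0.54, so on library totals it did not follow the stalk proteins in the Hep3B pair. For all 3 stalk proteins Hep3B was the low library, with RPLP0 at 1516, 3004, 5897 and 5243 CPM and RPLP1 at 498, 963, 2325 and 2040 CPM. After removal of both trends, RPLP0 stood at -0.28, RPLP1 at -0.81 and RPLP2 at 0.77 in the Hep3B pair, where RPLP2 was no longer called. RPL12 was then at -1.37 and was called down. With TMM library sizes all 3 stalk proteins were past the fold limit (1.58, 1.55 and 2.27), and RPL12 was at 0.33.

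RPL5, RPL11 and RPL23 encode large-subunit proteins that can bind MDM2, the ubiquitin ligase of p53. RPL11 fell in Hep3B-C (735 CPM in Hep3B and 321 in Hep3B-C, against 590 in Huh7 and 508 in Huh7-C), with a log2 fold-change of -1.20 ± 0.05 (FDR 2.4e-134). RPL23 (-0.95 ± 0.05) and RPL5 (-0.72 ± 0.04) were below 0 but inside the fold limit. With TMM library sizes RPL11 was at -0.60 and lost its call. Without the length trend RPL11, RPL23 and RPL5 were at -2.32, -2.08 and -1.73 in the Hep3B pair, all past the fold limit, and without both trends at -2.06, -1.24 and -0.88. In the Huh7 pair RPL11, RPL23 and RPL5 were at -0.22, -0.44 and 0.08. RPL5 showed the larger gap between parental lines, with 1065 and 646 CPM in the Hep3B pair against 3994 and 4233 CPM in the Huh7 pair.

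RPS19 and RPS14 are small-subunit proteins whose loss is linked to anaemia. RPS19 had 327 CPM in Hep3B and 641 in Hep3B-C, against 733 in Huh7 and 624 in Huh7-C, and RPS14 had 284, 568, 1502 and 1327 CPM. Their log2 fold-changes in the Hep3B pair, 0.97 ± 0.05 and 1.0 ± 0.06, were just under the fold limit, and in the Huh7 pair they were at -0.23 and -0.18. Both were past the limit with TMM (1.56 and 1.60), while without the length trend they were at -0.09 and -0.07, and without both trends at -1.03 and -0.58. RPS6, the substrate of the S6 kinases, had 1408, 903, 1170 and 848 CPM, with -0.64 ± 0.03 and -0.46, below the parental line in both pairs. With TMM RPS6 was at -0.05 in the Hep3B pair (FDR 0.22, Audic-Claverie test) and -0.51 in the Huh7 pair. Without the length trend it was at -1.70 and -0.18, and without both trends at -1.09 and -0.16. RPSA, also known as a laminin receptor, had 106, 163, 438 and 360 CPM, with 0.62 ± 0.10 and -0.28. RPS27A, made as a fusion with ubiquitin, had 386, 450, 752 and 633 CPM, with 0.22 ± 0.05 and -0.25.
RPL41 rose in Hep3B-C by 1.12 ± 0.03 (FDR 1.8e-280) and RPS2 by 1.23 ± 0.03, and in the Huh7 pair they were at -0.26 and 0.00. Both calls were lost without the length trend (-0.01 and 0.20) and without both trends (0.58 and -0.08). On library totals RPL13A was at -0.29 ± 0.11 (FDR 0.016) and 0.19 (FDR 0.014), so there it passed the FDR in neither pair. Without the length trend RPL13A was at -1.26 and 0.41, and without both trends at -1.51 and 0.43. On both of these scales it was called down in the Hep3B pair and stayed inside the fold limit in the Huh7 pair.

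The Huh7 pair showed a smaller and more even difference. The median log2 fold-change (Huh7-C/Huh7) of the 82 genes was -0.24, against 0.06 over all 11951 genes with at least 10 counts in the pair. The SD over genes was 0.30, against 0.96 in the Hep3B pair, and the range ran from -0.95 in RPL34 to 0.48 in RPL7L1. In 63 of 82 genes the value was below 0, and 23.2% were above 0, against 53.4% of all genes. None of the 85 genes tested passed the FDR and the 2-fold limit, with 4.19% of all genes up and 4.15% down. By the FDR alone 12 were up (all genes 15.4%) and 54 down (63.5%, all genes 12.2%). At an assumed BCV of 0.4 none was called, with 0.0878% of all genes up and 0.081% down. With the length trend removed the median was 0.046 against 0.03 for all genes, and 46 of 82 values lay above 0.

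Besides RPL34, the lowest values of the Huh7 pair were those of RPL22L1 (-0.85), RPS27L (-0.82), RPS27 (-0.74) and RPL38 (-0.71). RPL38, which encodes a large-subunit protein known for its part in translating Hox mRNAs, had 522 CPM in Hep3B and 389 in Hep3B-C, against 1384 in Huh7 and 844 in Huh7-C. RPS27 had 630, 297, 928 and 557 CPM and fell in Hep3B-C, at -1.09 ± 0.05, a call that was lost with TMM (-0.49) and held without both trends (-1.79). The highest values of the Huh7 pair were RPL7L1 (0.48), RPL8 (0.43), RPL39L (0.29, FDR 0.45), RPL7 (0.28) and RPL18 (0.24). RPL18, of the large subunit, rose in Hep3B-C (275 CPM in Hep3B and 642 in Hep3B-C), at 1.22 ± 0.06, whereas RPL7 was at -0.99 ± 0.04 there. RPL18 lost its call without the length trend (0.11) and without both trends (-0.58), and RPL7 then passed the limit (-2.05 and -1.10).

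The changes of single genes were then set side by side for the pairs. In 29 genes the fold-change was below 0 in both pairs and in 13 above 0 in both, while 34 were above 0 in the Hep3B pair alone and 6 in the Huh7 pair alone. Over all genes 36.8% were above 0 in the Hep3B pair and 53.4% in the Huh7 pair. The joint split over all genes is not given here, so these counts do not measure agreement between the pairs. The Pearson correlation of the fold-changes over 82 genes was 0.42 (Spearman 0.38), and 0.18 once both trends were taken out (Spearman 0.20). The pairs share no library. In the joint comparison of HCSC with HCC over the 4 libraries, with parental line as a blocking factor (edgeR quasi-likelihood test), none of 82 genes was called at an FDR of 0.05, with 0.077% of all genes called. None reached an unadjusted p of 0.05 there, against 372 of 11691 genes, and DESeq2 called none. The gene with the lowest p was RPS27L, with a log2 fold-change of -1.70 and an FDR of 0.999 by edgeR, a fit that had 1 residual degree of freedom.

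GC content moved with the change in Hep3B-C. Among the 28 genes lowest in GC content (41.3 to 47.5%) 1 rose and 5 fell, with a median log2 fold-change of -0.37, where 2.28% of all genes in that GC range rose and 43.4% fell. In the middle group (27 genes, 47.7 to 52.2%) 5 rose and 5 fell, with a median of 0.18, against 7.33% and 25.9% of all genes in the range. In the highest group (27 genes, 52.3 to 70.5%) 9 rose and none fell, with a median of 0.65, against 28% and 9.74%. The medians over all genes in those ranges, -1.15, -0.47 and 0.63, went the same way. The Spearman correlation of log2 fold-change with GC content was 0.56 over the 82 genes, against 0.61 over 12228 genes of all kinds. In the Huh7 pair these groups had medians of -0.32, -0.28 and -0.17, and the correlation was 0.26 over these genes and -0.06 over all genes. With gene length the correlation in Hep3B-C was -0.04 over these genes and -0.40 over all genes. The part of GC content in single changes was not tested.

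**Figure D3:**
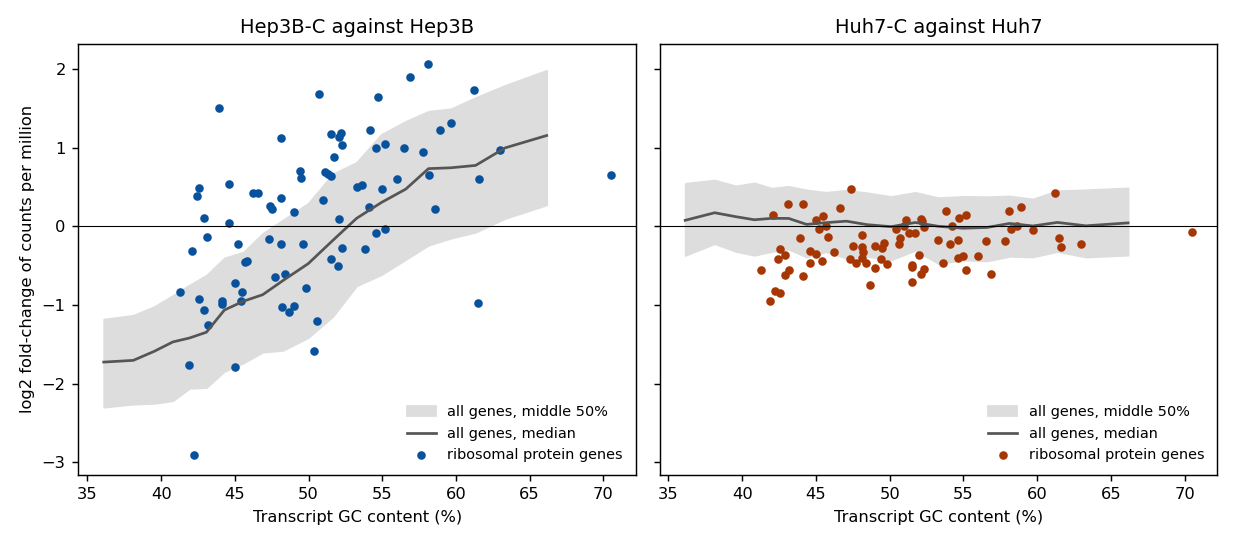
Log2 fold-change (y axis) against transcript GC content (x axis, %) in both pairs. Points are ribosomal protein genes, the line is the median of all genes in 20 bins and the grey band their interquartile range. In the Hep3B pair the points climb with GC content along the line (Spearman 0.56), and in the Huh7 pair most lie below a flat line.

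The subunits were compared next. In the Hep3B pair 45 large-subunit genes had a median log2 fold-change of 0.22 (9 rose, 5 fell) and 31 small-subunit genes one of 0.47 (6 rose, 4 fell), where 13.2% of all genes rose and 30.4% fell. In the Huh7 pair the medians were -0.17 and -0.31. Genes with and without the C-start tract had medians of 0.48 (46 genes) and 0.25 (20 genes) in the Hep3B pair, and of -0.20 and -0.30 in the Huh7 pair. With the length trend removed, the subunit medians in the Hep3B pair were -0.64 and -0.66.

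The duplicated copies held few of all counts, and their share of the counts of parent and copy together differed between lines. RPL36AL held 24.5% of the counts of RPL36A and RPL36AL in Hep3B (interval 22.3 to 26.9) and 43.4% in Hep3B-C (41.0 to 45.8), against 18.3% in Huh7 (17.3 to 19.3) and 13.3% in Huh7-C (12.4 to 14.2). The share was thus higher in Hep3B-C and lower in Huh7-C than in the parental line, with no overlap of the intervals. On library totals RPL36A (-0.84 ± 0.07) and RPL36AL (0.39 ± 0.10) moved apart in the Hep3B pair, neither past the fold limit. Without the length trend RPL36A was at -2.02 and RPL36AL at -0.75, both below 0. Without both trends they were at -1.17 and 0.37. RPL36A was called down on both of these scales.
RPS27L held 10.6% of the counts of RPS27 and RPS27L in Hep3B and 3.23% in Hep3B-C, against 2.70% in Huh7 and 2.55% in Huh7-C, so the Hep3B library alone stood apart. RPL39L, a copy of RPL39 known from testis, held 26% in Hep3B (20.9 to 31.7) and 10.2% in Hep3B-C, against 4.37% in Huh7 and 5.85% in Huh7-C. On library totals its own level passed the test in neither pair (24.2, 22.2, 14.1 and 17.3 CPM). There the share followed RPL39, which rose in Hep3B-C from 68.7 to 195 CPM (1.5 ± 0.11, FDR 1.4e-47). The call of RPL39 was lost without the length trend (0.30), where RPL39L was at -1.22 and was called down. It held without both trends (1.3), where RPL39L was at -0.17.

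**Figure D4:**
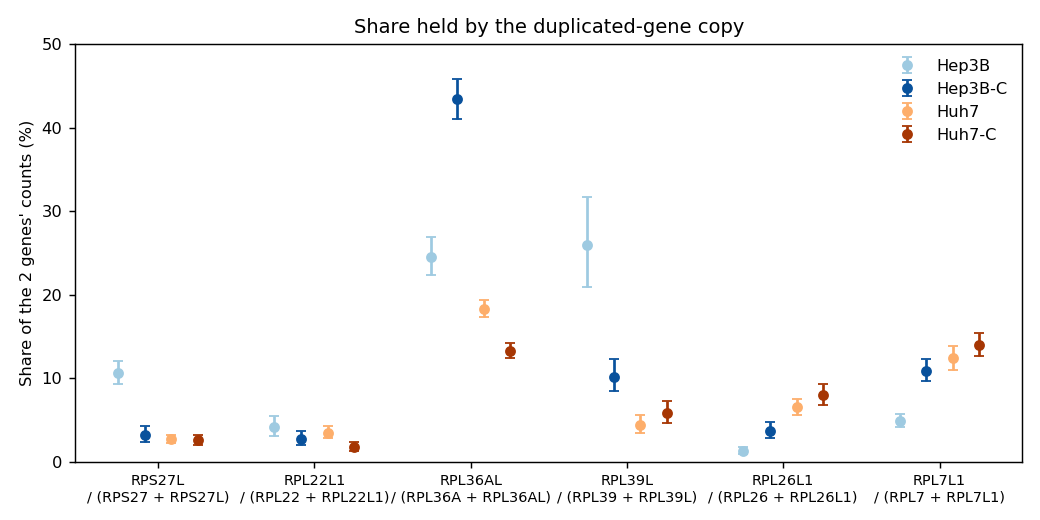
Share of the counts of a parent gene and its copy that fell on the copy (%, y axis), with exact 95% binomial intervals, for 6 copies (x axis) in the 4 cell lines. RPL36AL in Hep3B-C (43.4%) and RPS27L and RPL39L in Hep3B (10.6% and 26%) stand above the other lines.

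RPL7L1, which works in ribosome assembly, held 4.89% of the counts of RPL7 and RPL7L1 in Hep3B and 10.9% in Hep3B-C, against 12.4% in Huh7 and 14% in Huh7-C. RPL26L1 held 1.28%, 3.68%, 6.51% and 7.96% of the counts of RPL26 and RPL26L1, on 43 to 162 counts of its own. RPL22L1 held 4.15% (3.10 to 5.43), 2.73% (1.97 to 3.67), 3.49% (2.81 to 4.29) and 1.77% (1.30 to 2.35), so the HCSC shares were lower in both pairs, with intervals that overlapped in the Hep3B pair and not in the Huh7 pair. RPL22L1 itself was at -0.93 ± 0.30 (FDR 0.0036) and -0.85 (FDR 0.0039), and RPL22 at -0.31 and 0.15. RPL10L had 2 counts in Huh7 and RPL3L 2 counts in Huh7-C, and both were at 0 counts elsewhere, which allows up to 1.04 CPM in Hep3B. Their parents RPL10 and RPL3 had 1224 to 5988 and 3817 to 10701 counts. The sequences of parents and copies were not compared here, and any reads that match both cannot be told apart.

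Genes that make and use ribosomes were described from lists, with the same calls. Among all genes tested 13.2% rose and 30.4% fell in the Hep3B pair, and 4.19% rose and 4.15% fell in the Huh7 pair. The medians over all genes were -0.60 and 0.06. Of 62 ribosome biogenesis genes, 22 rose and 9 fell in Hep3B-C (median log2 fold-change 0.43). In Huh7-C 11 rose and none fell (median 0.64), and 57 of 62 were above 0, against 53.4% of all genes. The highest were BOP1 and NOC2L, which act in large-subunit assembly. BOP1 had 102 counts in Hep3B and 1743 in Hep3B-C, against 266 in Huh7 and 654 in Huh7-C, and log2 fold-changes of 3.41 and 1.36. NOC2L was at 3.17 and 0.79. The lowest were GNL3, the gene of nucleostemin (-1.65 and 0.21), and RRP15 (-1.48 and 0.19). In the Huh7 pair the biogenesis median was thus above 0 where that of the ribosomal proteins was below it, and with the length trend removed these medians were 0.63 and 0.046.

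Of 15 genes of the RNA polymerase I machinery, which transcribes ribosomal RNA, 2 rose and 4 fell in Hep3B-C, against 13.2% and 30.4% of all genes. Their median was -0.40, against -0.60 over all genes. In Huh7-C 4 rose and none fell, against 4.19% and 4.15% of all genes, with a median of 0.43 against 0.06. POLR1E (1.42 and 1.10) rose in both lines, ZNRD1 (2.15) rose and TAF1D (-2.77) fell in Hep3B-C, and TAF1C was at -0.81 and -0.18. Mitochondrial ribosomal proteins, encoded by 76 nuclear genes, had medians of 0.59 and -0.14, with 24 up and 3 down in the Hep3B pair and 1 down in the Huh7 pair. MRPL55 (2.53) and MRPS12 (2.43) were highest in Hep3B-C, and MRPL32 (-1.70) fell there. MRPS14 was at -0.49 and -0.97. The sign of both mitochondrial medians turned when the length trend was removed (-0.19 and 0.10), as it did for the cytosolic set.

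**Figure D5:**
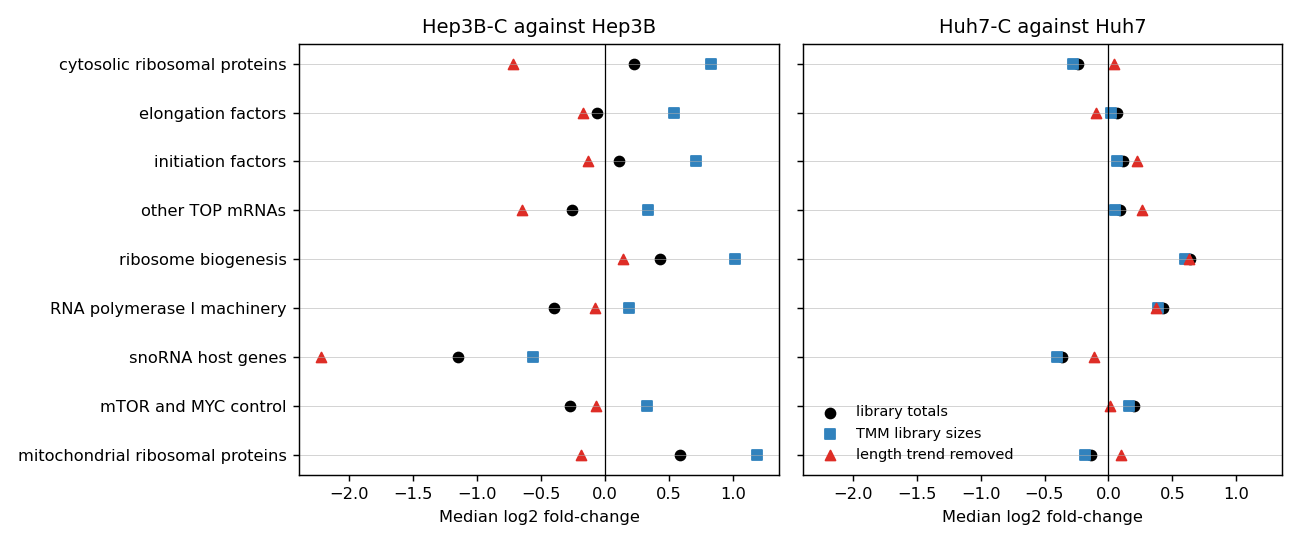
Median log2 fold-change (x axis) of the cytosolic ribosomal proteins and 8 other gene lists (y axis) in both pairs, with library totals, with TMM library sizes and with the length trend removed. The cytosolic ribosomal proteins stand at 0.23, 0.83 and -0.72 in the Hep3B pair, and ribosome biogenesis stays above 0 on each scale in both pairs.

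Translation factors were mixed in the Hep3B pair, where 13.2% of all genes rose and 30.4% fell (median -0.60). Among 37 initiation factors 11 rose and 6 fell in Hep3B-C (median 0.11), with EIF6, which keeps the subunits apart, at 3.07, EIF3B at 1.84, EIF4A2 at -2.57 and EIF1B at -1.26. None of the 37 was called in Huh7-C (median 0.11), where 4.19% of all genes rose and 4.15% fell (median 0.06). Among 12 elongation factors 2 rose and 4 fell in Hep3B-C (median -0.06) and 1 fell in Huh7-C (median 0.07). EEF1D (1.80) and EIF5A (1.62) rose in Hep3B-C, EEF1E1 fell there (-1.5), and EEF1A2, the tissue-restricted form of the factor that delivers tRNA, fell in both lines (-1.79 and -3.22).
Among 24 other genes with TOP mRNAs 4 rose and 5 fell in Hep3B-C, against 13.2% and 30.4% of all genes. Their median was -0.26, against -0.60 over all genes. In Huh7-C none was called, with a median of 0.09 against 0.06. GNB2L1, which encodes the small-subunit protein RACK1, rose in Hep3B-C (1.41), and VIM (-2.93) and NAP1L1 (-2.04) fell there.
Of 12 snoRNA host genes tested none rose and 6 fell in Hep3B-C (median -1.15), against 13.2% and 30.4% of all genes (median -0.60). In Huh7-C 1 fell (median -0.36), against 4.15% of all genes (median 0.06). It was SNHG6, which fell in both lines (-2.14 and -1.29). SNHG1 fell in Hep3B-C (-1.85) and was at -0.20 in the Huh7 pair. NCRNA00275 (-0.92 and 0.09) and SNHG7 (-0.32 and -0.10) were the highest of this list. Among 24 genes of mTOR and MYC control 7 rose and 9 fell in Hep3B-C (median -0.27), against 13.2% and 30.4% of all genes (median -0.60). In Huh7-C none was called (median 0.20, all genes 0.06). SESN2 (2.42) and AKT1S1 (2.02), inhibitors of mTOR complex 1, rose in Hep3B-C, and RICTOR (-2.68), a subunit of mTOR complex 2, and MXI1 (-2.03) fell there.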

How the data were processed

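mRNA libraries of Hep3B, Huh7, Hep3B-C and Huh7-C (1 each) came from an Illumina Genome Analyzer II. The authors filtered reads for adapters and quality, aligned them with NextGENe to NCBI Build 36.1 and deposited a raw read count and a length for each gene. Versions, the annotation and how multiply matching reads were counted are not given in the sources used here. Genes at 0 counts in both libraries of a pair were not listed. Counts assigned to genes summed to 2896418 to 4641927 per library. The sum was lowest in Hep3B, although the paper lists more total RNA reads for Hep3B than for any other line. A smaller part of the Hep3B reads thus reached a gene count, and the effect of this on the Hep3B pair was not tested.

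Genes were chosen by symbol. The gene set, lists and tests were chosen with earlier results of these data known. Fold-changes used library totals with 0.5 added to each count. Each pair was tested with the Audic-Claverie test (two-sided by doubling) over all listed genes, called at FDR at most 0.01 where the log2 fold-change was 1 or more in either direction. This test covers sampling noise only. HCSC and HCC were compared jointly with edgeR 4.0.16 (quasi-likelihood, TMM, filterByExpr, parental line as a block, FDR 0.05), where genes not listed in a pair were taken as 0. The parental line pairs the samples, and deviations of paired samples from their group means correlated at 0.584 over 11691 genes. A permutation of 2 against 2 samples cannot go below p = 0.33 and was not used. Medians were taken over genes with at least 10 counts in a pair.

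GC content came from GENCODE release 29 transcripts and start windows from RefSeq (GRCh38.p14), neither on the authors' build. Lowess trends (fraction 0.3) were centred on their own median and removed from log2 fold-changes, so the median of all genes could still move (-0.60 to -0.53 without the length trend and -0.47 without both in the Hep3B pair). The 40 ribosomal protein genes named by rule were a fixed list (P stalk, RPSA, RPS6, RPS27A, RPL41, the MDM2-binding and anaemia genes, RPL13A and the parent and copy pairs), the 5 highest and 5 lowest fold-changes of each pair with at least 50 counts in a library, and the 3 highest and 3 lowest median RPKM. RPL21 and RPL23A were added after their values were seen, and some genes that the rule names are not reported here. From each gene list the 2 highest and 2 lowest mean fold-changes were named. Tools were R 4.3.3, DESeq2 1.42.0, Python 3.11.15, statsmodels 0.14.6, matplotlib 3.10.9, pandas 2.3.3, scipy 1.17.1 and numpy 2.4.6.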

Additional observations from a re-analysis of the deposited data

Results flagged for a closer look

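The share of counts on ribosomal protein genes moved in opposite directions in the pairs, from 4.76% in Hep3B to 5.93% in Hep3B-C and from 9.90% in Huh7 to 8.83% in Huh7-C. The median log2 fold-change of the 82 genes likewise was 0.23 when Hep3B-C was set against Hep3B and -0.24 when Huh7-C was set against Huh7. With 1 library per line the difference between the pairs was not tested.

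A further 24 symbols with a pseudogene suffix, outside the comparisons above, together had more counts in every library than the 3 that a count of 0 allows, although most single symbols had few or none. They summed to 208 counts in Hep3B and 133 in Hep3B-C, against 290 in Huh7 and 203 in Huh7-C, under 0.01% of any library. The most abundant were RPL23AP53 in Hep3B (76 counts) and RPS2P32 in Huh7 (82 counts), named after their values were seen.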

How the results depend on the processing

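With 1 library per line, leaving out a library was possible only in the joint comparison. There 0 members were called with the parental line as a block, without it (no replicate block), and in every other alternative run, those that left out 1 library included (0 to 0).

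The share of counts in Hep3B, Hep3B-C, Huh7 and Huh7-C was 5.58%, 7.20%, 9.70% and 8.37% without the 20 most abundant genes, 14.94%, 14.27%, 22.95% and 21.56% per length, and 4.73%, 5.91%, 9.86% and 8.80% without the copies. Over genes listed in both pairs it was 4.79% in Hep3B and 5.97% in Hep3B-C. Only the per-length share turned the direction of a pair.

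In the Hep3B pair the median of 0.23 became 0.83 with TMM, 0.91 with DESeq2 size factors, -0.72 with the length trend removed and -0.65 with both the GC and the length trend removed. Genes called up and down (15 and 10) were 36 and 3 with TMM, 39 and 3 with DESeq2 size factors, 7 and 5 at an assumed BCV of 0.2, 0 and 0 at one of 0.4, 1 and 32 with the length trend removed, 2 and 30 with both trends removed, and 43 and 30 without the fold limit. In the Huh7 pair the median of -0.24 became 0.046 with the length trend removed and 0.060 with both, and the calls (0 and 0) were 0 and 1 with DESeq2 size factors and 12 and 54 without the fold limit. For DESeq2 size factors and for the BCV of 0.2 the share of all genes called is not given here, so those counts stand without a background. The cause of the changes between settings was not tested.

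Per length, in the order Hep3B, Hep3B-C, Huh7 and Huh7-C, the share of RPS27L was 3.71%, 1.07%, 0.892% and 0.839%, of RPL36AL 22.0%, 39.9%, 16.2% and 11.7%, of RPL39L 16.7%, 6.10%, 2.54% and 3.42%, and of RPL7L1 3.27%, 7.44%, 8.47% and 9.64%. For RPL26L1 it was 5.40% in Huh7 and 6.62% in Huh7-C.

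With TMM the list medians in Hep3B-C were 0.54 for elongation factors, 0.71 for initiation factors, 0.34 for other TOP mRNAs, 1.02 for ribosome biogenesis, 0.19 for RNA polymerase I, -0.56 for snoRNA host genes, 0.33 for mTOR and MYC control and 1.19 for mitochondrial ribosomal proteins. With the length trend removed they were -0.13 for initiation factors, -2.22 for snoRNA host genes and -0.19 for mitochondrial ribosomal proteins in Hep3B-C, and -0.10 for elongation factors and 0.10 for mitochondrial ribosomal proteins in Huh7-C.

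Medians that changed sign with the length trend removed were, in Hep3B-C, those of the large subunit (-0.64), the small subunit (-0.66), the groups middle and highest in GC content (-0.80 and -0.49), and the genes with (-0.57) and without the C-start tract (-0.70). In Huh7-C they were the large subunit (0.11), the groups lowest and highest in GC content (0.01 and 0.18) and the genes with the tract (0.06). The group lowest in GC content in Hep3B-C was at 0.22 with TMM.

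Among named genes, TMM changed the sign in Hep3B-C of RPL12 (0.33), RPL13A (0.31), RPL22 (0.29), RPL26L1 (0.37), RPL38 (0.17) and RPL39L (0.47), and in Huh7-C of RPS2 (-0.04). Removing the length trend changed it in Hep3B-C for RPL3 (-0.62), RPL36AL (-0.75), RPL41 (-0.01), RPL7L1 (-0.64), RPLP1 (-0.20), RPS14 (-0.07), RPS19 (-0.09), RPS27A (-0.86) and RPSA (-0.34). In Huh7-C it did so for RPL11 (0.14), RPL26 (0.02), RPL26L1 (0.28), RPL39 (0.31), RPL41 (0.11), RPLP0 (0.03), RPLP1 (0.21), RPLP2 (0.26), RPS14 (0.12), RPS19 (0.04) and RPS27A (0.06). Removing both trends, for single genes an alternative added after seeing the data, changed it in Hep3B-C for RPL18 (-0.58), RPL22 (0.22), RPL3 (-0.94), RPL7L1 (-0.05), RPL8 (-0.15), RPLP0 (-0.28), RPLP1 (-0.81), RPS14 (-0.58), RPS19 (-1.03), RPS2 (-0.08) and RPS27A (-0.22). In Huh7-C it did so for RPL11 (0.16), RPL26 (0.04), RPL26L1 (0.30), RPL39 (0.32), RPL41 (0.13), RPLP0 (0.05), RPLP1 (0.22), RPLP2 (0.28), RPS14 (0.13), RPS19 (0.00) and RPS27A (0.09). Adding 5 to each count moved no named gene across the threshold or 0. Counted over these genes in the Hep3B pair, whatever the sign, 5 gained and 4 lost their call with TMM, 11 and 10 with the length trend removed, and 8 and 9 with both trends removed, and none changed its call in the Huh7 pair. RPL21, RPL10L and RPL3L had too few counts for a direction at this depth.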
